A study of Mus musculus with 10 samples.

Results

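The 33 genes described here are a list of tissue macrophage and myeloid genes, matched by symbol to the 46983 genes counted in each of 10 mouse mammary gland RNA-seq libraries, and all 33 were found. The libraries came from female C57BL/6 mice, 5 fed a control folic acid diet (CFA, 1 mg FA/kg) and 5 a high folic acid diet (HFA, 5 mg FA/kg). The test diet lasted 4 weeks from post-natal day (PND) 74, all mice then received the same maintenance diet for 4 weeks, and the right thoracic mammary fat pad was taken whole at PND 130. The labels name no transgene or deletion, and the comparison asks whether gene expression differed weeks after the diet ended. Libraries are named CFA1 to CFA5 and HFA1 to HFA5. Their titles are codes whose second digit reads 2 in CFA1, CFA2, HFA1, HFA2 and HFA3 and 3 in the other 5, and the labels do not say what that digit means.

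Macrophages are phagocytes that settle in most tissues, where they depend on the growth factor receptor encoded by Csf1r and clear dying cells, lipid and matrix fragments. The mammary gland holds them along its ducts and in the fat and connective tissue of the pad. Resident macrophages of connective tissue are known for scavenger and lectin receptors such as Cd163, Mrc1 and the Cd209 family, while macrophages of the lymph node sinus are known for Marco and Timd4. Since the fat pad was sampled as bulk tissue, fewer cells of a type and less RNA per cell cannot be told apart in these values.

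The libraries held 7672199 to 14829291 reads on genes, and values are given as CPM, the counts divided by library size after TMM scaling, which is a share of each library's RNA and not an amount per gland. The libraries CFA2, CFA5 and HFA5 stood apart. Summed over 16 B and T cell markers, led by Ms4a1 and Lck, the level was 504 CPM in CFA2, 1260 CPM in CFA5 and 3488 CPM in HFA5, against 13.2 to 18.1 CPM in the other 7. Skeletal muscle markers, led by Myh4, summed to 695 CPM in HFA5 and 6728 CPM in CFA2 and to as much as 53720 CPM in HFA4. Fibroblast markers, led by Dcn, ran over 412 to 3249 CPM, lowest in HFA5 and then HFA4 and highest in HFA2. The ranges of the other summed lists were 320.2 to 2260 CPM for epithelium (Krt19), 9333 to 16320 CPM for adipocytes (Fabp4), 62.97 to 1802 CPM for brown fat (Ucp1), 406 to 603 CPM for endothelium (Pecam1), 150.2 to 402 CPM for mast cells (Kit), 62.9 to 941 CPM for dendritic cells (Bst2), 3.38 to 829 CPM for lymph node stroma (Cr2) and 81.8 to 223 CPM for red blood cells (Hbb-bs). The monocyte and granulocyte list summed to 73.5 to 258 CPM, mostly from Ltf, and 5 of its 14 genes passed the filter. Of its neutrophil genes, Ly6g was at 0 in all 10 libraries, Csf3r read 1.01 to 9.48 CPM, and Cxcr2 had 202 reads in HFA5 and up to 47 in any other library. The defining macrophage genes Adgre1, Csf1r and Cd68 were detected in every library.

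Promoters of 24 of the 33 genes were in the RefSeq table used (GRCm38.p6, 250 bases before to 50 after the start). The core letters bound by PU.1, a factor of the myeloid lineage, are GAGGAA, which stood on either strand in 10 of these 24 promoters (41.7%) and in 28.3% of 32851 promoters of the same length. The AP-1 letters TGACTCA stood in 5 of the 24 (20.8%) and in 5.2% of all. No promoter shown holds both motifs, and a match describes letters and does not show binding. The promoters of 4 genes are shown because they belong to 2 clusters of neighbouring genes that the results turn on, the C1q chains and the Cd209 lectins. Capitals mark GAGGAA or TGACTCA, read as TTCCTC or TGAGTCA where the match is on the opposite strand. C1qb lies at chr4:136886151-136886450 and C1qc at chr4:136892865-136893164, both on the minus strand, and their matches begin 30 and 193 bases before the start. Cd209f lies at chr8:4105715-4106014 on the minus strand and Cd209g at chr8:4134486-4134785 on the plus strand, with matches 83 and 97 bases before the start.
C1qb: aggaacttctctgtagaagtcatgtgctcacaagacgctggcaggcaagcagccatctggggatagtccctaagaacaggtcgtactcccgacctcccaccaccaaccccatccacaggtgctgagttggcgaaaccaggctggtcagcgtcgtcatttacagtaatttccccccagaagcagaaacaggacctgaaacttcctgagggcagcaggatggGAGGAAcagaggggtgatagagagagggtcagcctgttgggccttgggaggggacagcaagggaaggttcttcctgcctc
C1qc: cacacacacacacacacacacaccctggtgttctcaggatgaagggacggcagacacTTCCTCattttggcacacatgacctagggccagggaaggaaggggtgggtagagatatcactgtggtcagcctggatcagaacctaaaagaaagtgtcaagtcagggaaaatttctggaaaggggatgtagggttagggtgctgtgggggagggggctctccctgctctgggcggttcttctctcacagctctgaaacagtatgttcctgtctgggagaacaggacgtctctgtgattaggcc
Cd209f: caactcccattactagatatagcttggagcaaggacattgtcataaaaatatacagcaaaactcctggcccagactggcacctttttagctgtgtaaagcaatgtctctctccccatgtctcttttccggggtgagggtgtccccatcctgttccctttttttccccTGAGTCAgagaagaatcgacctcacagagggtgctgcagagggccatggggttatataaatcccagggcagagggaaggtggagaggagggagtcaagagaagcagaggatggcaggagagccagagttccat
Cd209g: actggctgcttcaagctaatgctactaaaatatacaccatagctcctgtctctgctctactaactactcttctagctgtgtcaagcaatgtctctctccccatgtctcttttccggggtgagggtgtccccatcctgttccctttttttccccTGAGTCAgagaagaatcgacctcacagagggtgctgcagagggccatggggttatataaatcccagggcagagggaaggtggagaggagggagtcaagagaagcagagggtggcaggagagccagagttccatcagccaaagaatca
The Cd209f and Cd209g promoters were identical at 81.2% of positions, gaps counted, with an unbroken run of 180 identical bases that holds the AP-1 letters in both. The C1qb and C1qc promoters were identical at 48.4%, with no shared run above 10 bases.

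The list as a whole was even among the CFA libraries and spread wide among the HFA libraries. Summed over the 33 genes, the level was 1401, 1455, 1468, 1226 and 1272 CPM in CFA1 to CFA5, and 1229, 2611, 1609, 444 and 3026 CPM in HFA1 to HFA5. HFA4 was below and HFA2, HFA3 and HFA5 above every CFA library. HFA4 was the lowest library for 24 of the 33 genes and lay below all 5 CFA libraries for 28, where it did so for 26.4% of all genes. HFA2 was the highest for 22 and lay above all CFA libraries for 28, against 23.2% of all genes. HFA5 was the highest library for 10 genes and the lowest for 5. The SD among HFA libraries was larger than among CFA libraries for 31 of the 33 genes, against 78% of all genes, and for 31 it was also larger than the difference between the diet means. Shares over all genes were not computed for that last comparison or for the counts of highest and lowest libraries.

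**Figure D1:**
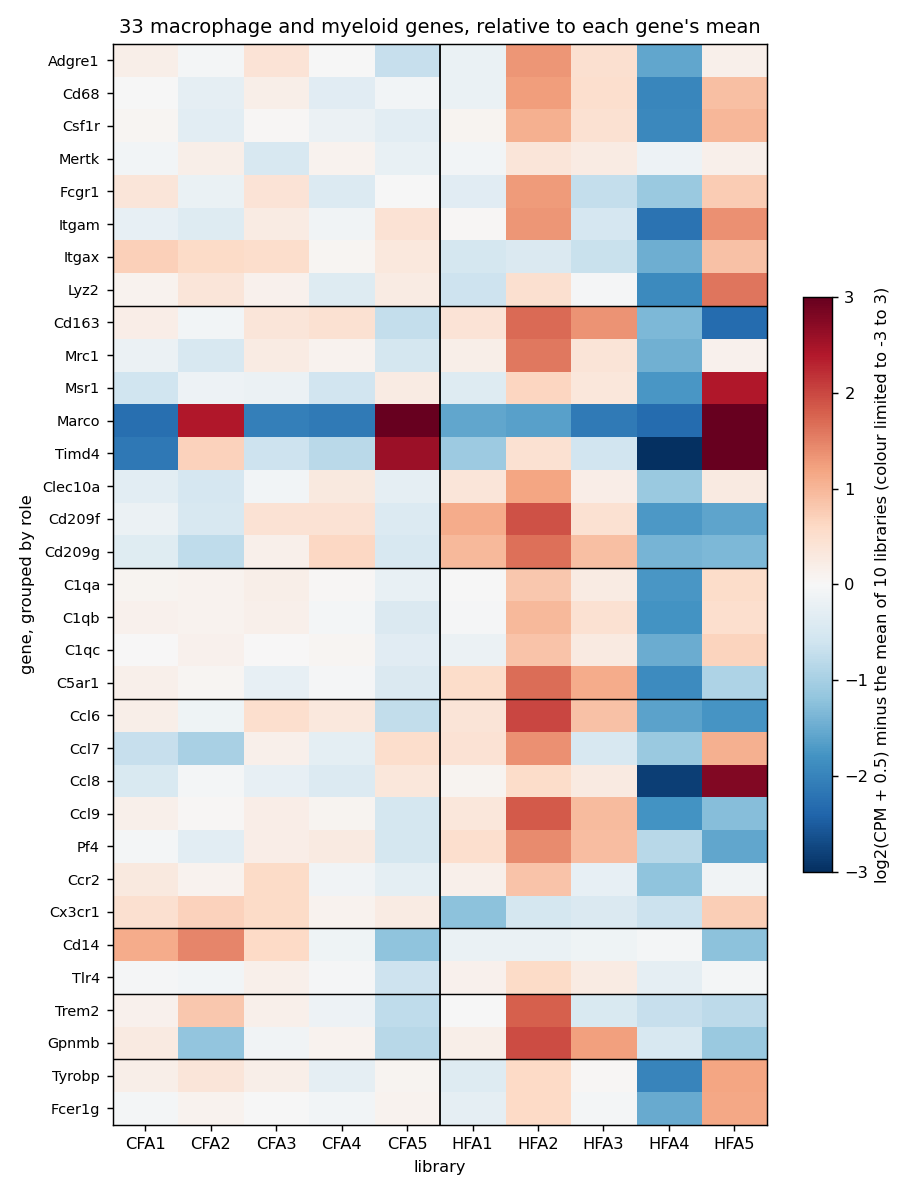
Level of each of the 33 genes (rows, grouped by role) in each library (columns), as log2(CPM + 0.5) minus the gene's mean over the 10 libraries. HFA4 is blue and HFA2 red for most genes, Marco and Timd4 are red in CFA5 and HFA5, and Cd163, Ccl6, Ccl9 and Pf4 are blue in HFA5 where most identity genes are red.

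The identity genes showed the pattern of the whole list. Csf1r, the receptor for the macrophage growth factors CSF1 and IL-34, read 91.7, 71.4, 90.8, 78.7 and 71.3 CPM in CFA1 to CFA5 and 93.7, 186, 123, 22.9 and 178 CPM in HFA1 to HFA5. The CFA libraries lay close together, HFA4 lay far below them, and HFA2 and HFA5 were about level with each other. Adgre1, which encodes the F4/80 antigen, read 28.1, 23.7, 33.2, 24.6 and 15.2 CPM in CFA1 to CFA5 and 21.4, 62.5, 34.6, 8.05 and 27.6 CPM in HFA1 to HFA5. Cd68, a lysosomal glycoprotein of phagocytes, read 23.4, 19.5, 26.5, 18.6 and 22.2 CPM in CFA1 to CFA5 and 20.5, 57.02, 33.8, 5.67 and 44.2 CPM in HFA1 to HFA5. Diet groups overlapped for all of these, and for Adgre1 HFA5 lay within the CFA range. Lyz2, the lysozyme of macrophages and monocytes, had the highest level per exon length of the list at a mean of 325 RPKM (CPM per kilobase of exon), against 17.4 RPKM for Csf1r, and read 395, 466, 397, 279 and 429.5 CPM in CFA1 to CFA5 and 238, 508, 357, 96.8 and 1113 CPM in HFA1 to HFA5. Its highest library was HFA5 and its lowest HFA4. The integrin chain Itgam ranged over 1.10 to 18.7 CPM and the Fc receptor Fcgr1 over 1.83 to 11.7 CPM, both with their lowest value in HFA4. Mertk, a receptor for dying cells, was the most even gene of the list, at 15.9 ± 2.93 CPM under the CFA diet and 18.4 ± 2.75 CPM under the HFA diet (SD, n = 5 each). Its highest library was 1.83 times its lowest, where Csf1r differed 8.12-fold and Adgre1 7.76-fold. Exons of Csf1r and Itgam overlap those of another gene, Hmgxb3 on the opposite strand and Gm49368 on the same strand, and the library kit does not mark strand, so reads in those stretches cannot be told apart.

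The 3 chains of C1q, the recognition molecule of the classical complement pathway, moved together. Their genes lie side by side on chromosome 4 between 136880129 and 136898803 (GRCm38, minus strand). C1qa read 97.6, 99.6, 104, 94.2 and 79.1 CPM in CFA1 to CFA5 and 91.9, 162, 110.4, 27.3 and 136 CPM in HFA1 to HFA5. C1qb read 96.9, 94.8, 98.03, 84.8 and 64.7 CPM in CFA1 to CFA5 and 86.5, 175, 120.2, 24.96 and 125 CPM in HFA1 to HFA5. C1qc read 82.6, 88.7, 82.6, 85.3 and 63.95 CPM in CFA1 to CFA5 and 72.7, 147, 98.9, 28.6 and 129.8 CPM in HFA1 to HFA5. HFA4 was the lowest and HFA2 the highest library for each chain, with the diet groups overlapping. The ratio of C1qa to C1qb in CPM stayed within 0.918 to 1.22, and that of C1qc to C1qb within 0.823 to 1.15, while C1qb itself varied 7-fold. C5ar1, the receptor for the complement fragment C5a, did not follow the C1q chains in HFA5. It read 10.2, 9.65, 7.61, 9.03 and 6.64 CPM in CFA1 to CFA5 and 13.6, 30.5, 20.4, 2.10 and 4.58 CPM in HFA1 to HFA5. HFA4 and HFA5 were both below all CFA libraries for C5ar1 and the other 3 HFA libraries were above them.

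**Figure D2:**
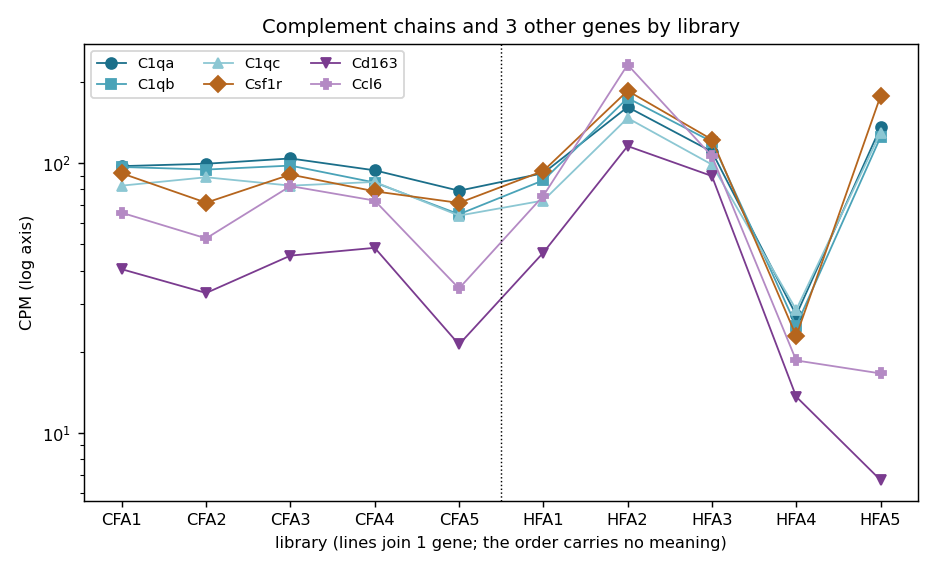
CPM on a log axis of the 3 C1q chains, Csf1r, Cd163 and Ccl6 in each library, 1 point per gene and library. The C1q chains and Csf1r are low in HFA4 only, whereas Cd163 and Ccl6 are low in both HFA4 and HFA5.

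Marco and Timd4 separated the 3 libraries with B and T cell markers from the other 7. Marco (chr1:120474538-120505024), a scavenger receptor that binds bacteria and particles, read 0.206, 17.6, 0.325, 0.289 and 79.3 CPM in CFA1 to CFA5 and 0.664, 0.604, 0.284, 0.183 and 465 CPM in HFA1 to HFA5. CFA2, CFA5 and HFA5 had 160, 1063 and 7309 reads on Marco, and the other 7 had 2 to 7, so the gene was near or below a detection floor of 3 reads in those. Timd4 (chr11:46810800-46844332), a receptor for phosphatidylserine on dying cells, read 1.44, 13.3, 5.07, 4.41 and 49.9 CPM in CFA1 to CFA5 and 3.54, 11.3, 5.25, 0.457 and 218 CPM in HFA1 to HFA5. All 3 of these libraries were above the other 7 for both genes, although HFA2 at 11.3 CPM came close to CFA2 for Timd4. The share of all genes separated in this way was not computed, so the separation cannot be read as particular to the list. Msr1, the class A scavenger receptor, read 4.19, 5.92, 5.79, 4.34 and 7.91 CPM in CFA1 to CFA5 and 4.98, 10.7, 8.51, 1.65 and 37.4 CPM in HFA1 to HFA5, and Ccl8, a chemokine for monocytes, read 10.03, 13.5, 11.7, 10.4 and 17.8 CPM in CFA1 to CFA5 and 14.8, 20.6, 17.03, 1.55 and 99.5 CPM in HFA1 to HFA5. Only HFA5 stood clear of the rest for Msr1 and Ccl8, and HFA4 was lowest for both. The B and T cell markers rose along with these genes, and their part in the result was not tested beyond the slope given next.

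Slopes of each gene on the mean of the 8 B and T cell markers that passed the low-count filter were fitted in edgeR with a diet term. The quasi-likelihood p-values were adjusted over 15610 genes by the Benjamini-Hochberg method. Of the 32 genes tested, 5 rose with the marker mean, against 18.3% of all genes, and 2 fell, against 11.4% of all genes, so neither count was above the background. The slope, in log2 units per log2 unit of the marker mean, was 0.74 ± 0.10 (SE) for Timd4 (adjusted p = 0.000537), 0.32 ± 0.091 for Ccl8 (adjusted p = 0.0254) and 0.28 ± 0.075 for Msr1 (adjusted p = 0.0193). Itgax, the CD11c chain of dendritic cells and some macrophages, and the fractalkine receptor Cx3cr1 rose by 0.16 (adjusted p = 0.0489) and 0.14 (adjusted p = 0.0477). Gpnmb and Pf4 had slopes of -0.29 (adjusted p = 0.0411) and -0.25 (adjusted p = 0.0486). Without HFA5, 0 of the 32 genes passed the quasi-likelihood test, 1 had an unadjusted p under 0.05 where 12.4% of all genes did, and 2.68% of all genes passed. Leaving out CFA1, CFA2, CFA3, CFA4, CFA5, HFA1, HFA2 or HFA3 left 4, 4, 3, 3, 8, 2, 5 or 3 genes past the threshold. Over all genes, those fits called from 3422 of 15877 (without HFA1) to 6341 of 15753 (without CFA5). Leaving out HFA4 gave 10 of the 32, where 4384 of 15840 genes passed. Timd4 passed in each of the 10 fits that left out 1 library except the one without HFA5. Marco was not among the 32 because too few libraries had enough reads on it to pass the filter, and with no filter its slope was 1.33.

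**Figure D3:**
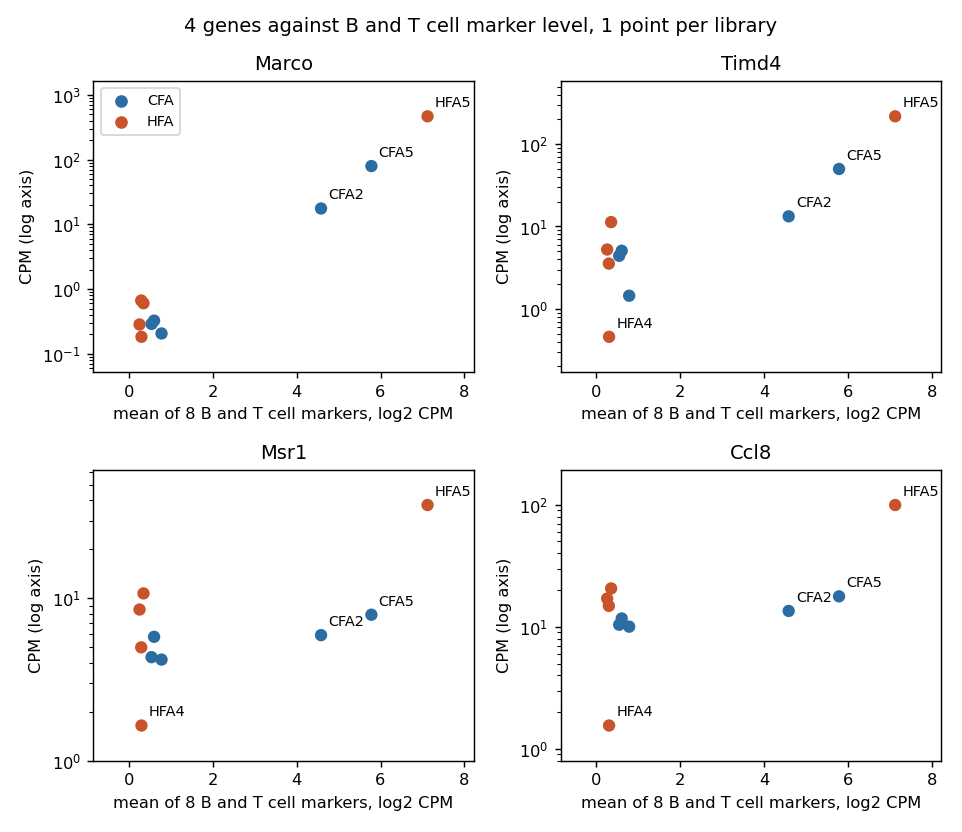
CPM (log axis) of Marco, Timd4, Msr1 and Ccl8 against the mean log2 CPM of 8 B and T cell markers, 1 point per library, coloured by diet. CFA2, CFA5 and HFA5 lie to the right and above all others for Marco and Timd4, while for Msr1 and Ccl8 only HFA5 lies above the rest.

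A second group of resident macrophage genes was low in both HFA4 and HFA5. Cd163 (chr6:124304656-124330527), the receptor that takes up haemoglobin bound to haptoglobin, read 40.5, 33.02, 45.4, 48.6 and 21.3 CPM in CFA1 to CFA5 and 46.6, 116, 89.7, 13.6 and 6.68 CPM in HFA1 to HFA5. HFA5, the lowest for Cd163, was among the highest for Csf1r and Lyz2. The C-type lectin Cd209f read 18.3, 14.6, 27.95, 28.2 and 15.5 CPM in CFA1 to CFA5 and 45.5, 79.02, 28.2, 5.94 and 6.49 CPM in HFA1 to HFA5, and its neighbour Cd209g read 6.52, 4.83, 9.56, 13.3 and 5.97 CPM in CFA1 to CFA5 and 17.2, 27.9, 16.3, 2.93 and 3.06 CPM in HFA1 to HFA5. Both were highest in HFA2 and below every CFA library in HFA4 and HFA5. The 2 lectins lie on chromosome 8 at 4102787-4105835 and 4134098-4137707 and share promoter sequence as shown above, and reads that fit both would have been left out as not unique. The chemokines Ccl6 and Ccl9, close neighbours on chromosome 11 that attract CCR1-bearing cells, behaved in the same way. Ccl6 read 65.5, 52.7, 82.3, 72.7 and 34.3 CPM in CFA1 to CFA5 and 75.7, 232, 106, 18.6 and 16.6 CPM in HFA1 to HFA5. Ccl9 read 39.7, 36.5, 41.5, 38.3 and 24.6 CPM in CFA1 to CFA5 and 45.4, 131, 70.2, 9.97 and 14.5 CPM in HFA1 to HFA5. Pf4, the CXC chemokine of platelets and some macrophages, read 12.4, 10.1, 14.7, 15.5 and 8.66 CPM in CFA1 to CFA5 and 18.4, 34.8, 24.8, 6.95 and 4.01 CPM in HFA1 to HFA5. For each of these genes HFA4 and HFA5 lay below the CFA range and HFA2 and HFA3 above it, barely so for Cd209f in HFA3.

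Within the HFA diet, the libraries with title digit 2 (HFA1 to HFA3) were all above those with title digit 3 (HFA4 and HFA5) for 11 of the 33 genes, against 12.3% of all genes, and below for none, against 12.3% of all genes. The largest log2 differences with digit 2 above digit 3 were 3.05 ± 0.55 (SE) for Cd163, 3.03 ± 0.48 for Cd209f, 2.97 ± 0.56 for Ccl6, 2.77 ± 0.42 for Cd209g, 2.75 ± 0.47 for Ccl9, 2.67 ± 0.45 for C5ar1 and 2.25 ± 0.41 for Pf4. By edgeR's quasi-likelihood test 0 of 32 genes passed in either direction, with an adjusted p of 0.257 for each of these 7 and 0% of all genes passing higher or lower. At an unadjusted p under 0.05, 10 of the 32 genes were higher and 0 lower, where 6.11% of all genes were higher and 15.7% differed in either direction. Without HFA4 that count over both directions was 16 (50.1% of all genes), and without HFA5 it was 24 (10.3% of all genes). Cd163, Cd209f, Cd209g, Ccl6, Ccl9, C5ar1 and Pf4 are on the study's own list of genes it reports as changed by diet. That list was chosen on these samples, so their number is not independent evidence. HFA against CFA gave log2 fold changes of 0.66 for Cd209f, 0.74 for Cd209g and 0.72 for C5ar1. The study's model had cage as a term, which these fits lack. The diet changes that the study prints for Cd209f, Cd209g and C5ar1 are near the title digit differences and well above those diet values. The reason was not tested. Between title digits within HFA, the likelihood ratio test called the same 7 genes (1.26% of all genes), and DESeq2 called these and Gpnmb (2.11% of all genes). Without HFA4, 15 of the 32 genes passed the quasi-likelihood test where 38.3% of all genes did, and HFA5 was then the lone library of its digit, assumed to vary like the other groups. The other genes with an unadjusted p under 0.05 were Gpnmb at 2.17 ± 0.66, Trem2 at 2.18 ± 0.87 and Mrc1 at 1.32 ± 0.56. Between title digits within the CFA diet, 0 of 32 genes passed (0% of all genes), and only Cd14 had an unadjusted p under 0.05, where 2.61% of all genes did. The interaction of diet and title digit was past the threshold for 0 of 32 genes (0% of all genes), with 8 at an unadjusted p under 0.05, where 8.46% of all genes were, of which 7 were the genes of the study's list.

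Diet differences pointed opposite ways under the 2 title digits for these 7 genes. Among libraries with title digit 2, HFA was higher than CFA by 1.11 to 1.84 on the log2 scale, and among those with title digit 3 it was lower, from -1.20 for C5ar1 to -1.94 for Cd209f. None of these differences passed adjustment by the quasi-likelihood test (lowest adjusted p of 0.453 and 0.568). All 7 had an unadjusted p under 0.05 under each digit, where 10.8% of all genes did under digit 2 and 8.01% under digit 3. The study chose these 7 genes on the same libraries, so that count is not independent evidence. HFA4 and HFA5 also had the lowest fibroblast markers of the 10 libraries, and HFA5 carried the B and T cell markers, and the part of either in the result was not tested.

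The remaining resident receptors followed the identity genes more closely. Mrc1, the mannose receptor, read 66.8, 53.9, 88.3, 80.4 and 51.9 CPM in CFA1 to CFA5 and 84.5, 225, 98.3, 27.4 and 81.7 CPM in HFA1 to HFA5, and Clec10a, a galactose-binding lectin, averaged 22.2 ± 5.05 CPM under the CFA diet and 31.5 ± 16.2 CPM under the HFA diet. Both were lowest in HFA4 and highest in HFA2. Trem2 and Gpnmb are markers of lipid-associated macrophages. Trem2 was low, with 6 to 69 reads per library and 5.95 CPM in HFA2 against at most 2.74 CPM in any other. Gpnmb read 10.99, 3.73, 8.45, 9.76 and 4.85 CPM in CFA1 to CFA5 and 10.3, 36.5, 21.9, 6.31 and 3.88 CPM in HFA1 to HFA5, and all 3 libraries with B and T cell markers were below the other 7. How many of all genes were below in the same way was not computed. Tyrobp and Fcer1g are adaptors that carry signals of receptors such as Trem2 and the Fc receptors. Tyrobp averaged 34.2 ± 5.40 CPM under the CFA diet and 36.7 ± 24.5 CPM under the HFA diet. Fcer1g averaged 20.4 ± 1.24 CPM under the CFA diet and 23.8 ± 14.95 CPM under the HFA diet, and for both HFA4 was lowest and HFA5 highest. Fcer1g was among the most even genes within CFA, from 19.1 to 21.8 CPM.

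Itgax and Cx3cr1 were 2 of the 4 genes with a lower mean in HFA. Itgax read 19.9, 18.2, 17.5, 12.5 and 15.2 CPM in CFA1 to CFA5 and 8.19, 8.80, 7.38, 4.02 and 22.6 CPM in HFA1 to HFA5. Cx3cr1 read 9.61, 11.1, 10.2, 7.30 and 7.99 CPM in CFA1 to CFA5 and 2.55, 4.49, 4.83, 4.12 and 11.5 CPM in HFA1 to HFA5. For both, HFA1 to HFA4 were below every CFA library and HFA5 was above every one, so the groups overlapped only through HFA5. The log2 fold change over all 10 libraries was -0.70 ± 0.39 (SE) for Itgax (adjusted p = 0.699, edgeR) and -0.74 ± 0.36 for Cx3cr1 (adjusted p = 0.678). Over 10 libraries the diet groups did not overlap for 0 of the 32 tested genes, against 0.993% of all genes, and without HFA5 for these 2 of the 32 (6.25%), against 10.4% of all genes. Without HFA5 the log2 fold changes were -1.27 ± 0.25 and -1.25 ± 0.23 (adjusted p = 0.0605 and 0.0575, edgeR), with 0 of 32 genes past the threshold, 3 at an unadjusted p under 0.05 where 25.8% of all genes were, and 0.0381% of all genes past it. Without all 3 libraries that carried B and T cell markers, Cx3cr1 passed at -1.18 ± 0.25 (adjusted p = 0.0462) and Itgax stood at -1.23 ± 0.28 (adjusted p = 0.0512), where 2.98% of all genes passed. limma voom with quality weights called both genes and no other of the 32, with 6.64% of all genes called. These shares of the list are near or below those of all genes. The exons of Cx3cr1 overlap those of Gm33858 on the opposite strand.

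The other 2 genes with a lower mean in HFA were Cd14 and Ccr2. Cd14, the co-receptor for bacterial lipopolysaccharide, read 90.2, 114, 62.1, 37.4 and 17.5 CPM in CFA1 to CFA5 and 36.1, 35.6, 37.8, 39.3 and 17.3 CPM in HFA1 to HFA5. It had a log2 fold change of -0.95 ± 0.44 (SE, adjusted p = 0.671 by edgeR), the lowest of the list. HFA1 to HFA4 lay within a narrow band at 35.6 to 39.3 CPM, while the CFA libraries spread from 17.5 to 114 CPM. Tlr4, which signals with Cd14, was even, at 26.9 ± 4.94 CPM under the CFA diet and 32.3 ± 7.37 CPM under the HFA diet. Ccr2, the receptor by which monocytes leave blood for tissue, averaged 41.5 ± 9.89 CPM under the CFA diet and 38.4 ± 19.3 CPM under the HFA diet. Ccl7, one of its ligands, was low throughout at 7 to 74 reads per library and averaged 1.73 ± 0.939 CPM under the CFA diet and 3.09 ± 2.24 CPM under the HFA diet.

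Across the whole list, HFA against CFA was past the threshold for 0 of 32 tested genes by edgeR's quasi-likelihood test, where 0% of all genes passed. None of the 32 had an unadjusted p under 0.05, where 7.36% of all genes did, but without HFA4 10 of the 32 did, all higher in HFA, where 5.78% of all genes did in either direction and 3.02% were higher. They were Csf1r, Cd68, C1qa, C1qb, C1qc, C5ar1, Clec10a, Mrc1, Ccl8 and Msr1. DESeq2 also called 0 of the 32 (0.384% of all genes), as did the likelihood ratio test (0.211% of all genes) and limma voom (0% of all genes), with 1, 1 and 2 of the 32 at an unadjusted p under 0.05, where 9.34%, 6.44% and 7.11% of all genes were. The log2 fold change was positive for 28 genes in the quasi-likelihood fit, where it was positive for 9372 of all 15610 genes, and for 19 by limma voom. In the quasi-likelihood fit it was negative for 4, with a median of 0.51 beside 0.064 over all 15610 genes, and adjusted p ran from 0.671 to 0.961. By role, the median was 0.27 for the 8 identity genes, 0.66 for the 7 tested resident receptors, 0.26 for the 4 complement genes, -0.35 for the 2 genes of bacterial sensing, 0.55 for the 7 chemokines and chemokine receptors, 0.69 for the 2 lipid-associated genes and 0.17 for the 2 adaptors. The 7 genes of the study's list had a median of 0.58, but with title digit as a term 6 of the 7 were negative, from -0.35 for Cd163 to -0.0044 for Pf4, and Cd209g was at 0.11. Single libraries set several directions. Timd4 had the highest value at 1.69 ± 1.44 (SE) and stood at -1.55 ± 1.03 without HFA5, Ccl8 went from 1.28 to 0.058 and Msr1 from 1.18 to 0.16. The median over the list was 0.22 without HFA5, 0.11 without HFA2 and 0.73 without HFA4, and it was 0.036 by limma voom and 0.15 with title digit as a term. It was 0.25 when the marker mean of B and T cells entered as a covariate, where again 0 of 32 genes passed, 3 had an unadjusted p under 0.05 where 15.2% of all genes did, and 0.0192% of all genes passed.

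**Figure D4:**
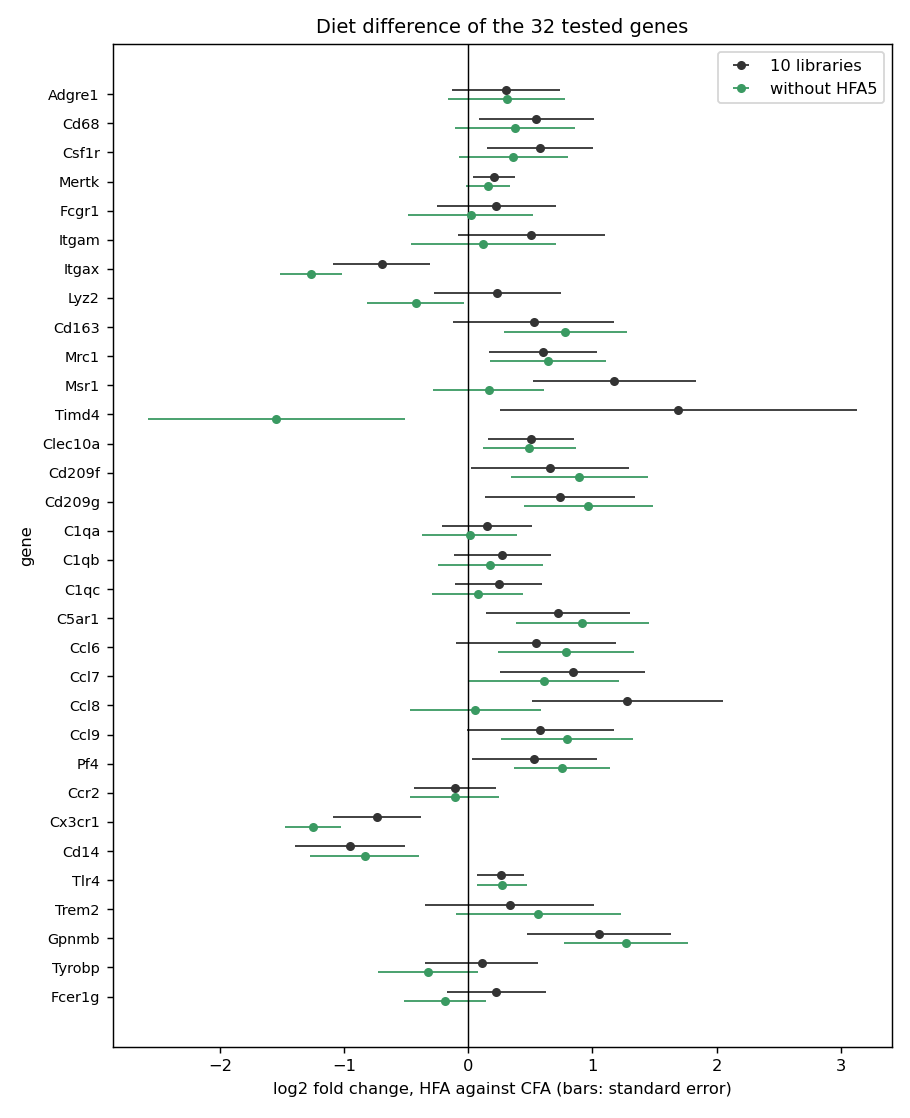
Log2 fold change of HFA against CFA with its standard error for the 32 tested genes, over 10 libraries (dark) and without HFA5 (green). Most dark points lie between 0 and 1.3, and Timd4, Ccl8, Msr1 and Lyz2 shift most when HFA5 is left out.

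The levels of the list were set beside 2 other cell types of the pad, as log2(CPM + 0.5) against the mean of fibroblast or epithelial markers. Two-sided permutation tests were run for each of the 15610 genes, with Benjamini-Hochberg adjustment over all of them for each marker mean. Both measures come from the same library and scaling, and the relations describe shared variation. Over the 10 libraries, r was positive and past the threshold with the fibroblast mean for 6 of the 32 genes, against 2.49% of all genes. They were Ccl6 (r = 0.944, rho = 0.952, permutation p = 1e-05, the smallest the permutations can give, adjusted p = 0.006), Cd163 (r = 0.961), Pf4 (r = 0.922), Cd209f (r = 0.884), Ccl9 (r = 0.882) and Cd209g (r = 0.84), with adjusted p up to 0.0404. All 6 are on the study's list, whose other gene, C5ar1, had r = 0.79 (permutation test, adjusted p = 0.0754). The study chose that list on these samples, so the count of 6 is not independent evidence. By rank, Ccl6 was the only one of the 32 to pass (permutation test, adjusted p = 0.0457), against 0.282% of all genes, and rho was 0.903 for Cd163, 0.879 for Pf4 and 0.879 for Ccl9. Without HFA4 and HFA5, the 2 libraries farthest from the median of the fibroblast mean, r was 0.915 for Ccl6 and 0.879 for Cd163 and lowest of the 6 at 0.732 for Cd209g. Csf1r had r = 0.248 and C1qa r = 0.379 over 10 libraries, where HFA5 lay off the line of the others.

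Among the 7 libraries with low B and T cell markers, 0 of the 32 genes and 0% of all genes passed with the fibroblast mean by exact permutation tests adjusted over all genes. At an unadjusted p under 0.05 the relation was positive for 24 of the 32, against 7.55% of all genes. In these libraries r was 0.995 for C1qa (exact permutation p = 0.00258, adjusted p = 0.295), 0.991 for Fcer1g and 0.968 for Csf1r. By rank, rho was 0.929 for C1qa, 0.893 for Fcer1g and only 0.571 for Csf1r. Without HFA4, r was 0.957 for C1qa, 0.968 for Fcer1g and 0.833 for Csf1r. HFA4 was the lowest of the 7 on the fibroblast mean. An r above 0.8 was reached by 24 genes in the 7 libraries, against 6.54% of all genes, and by 16 in the 6 left without HFA4, against 3.36%. Mertk (r = 0.322), Cx3cr1 (r = 0.249) and Cd14 (r = 0.0756) showed the weakest relations in these 7 libraries. The 3 libraries rich in B and T cell markers are too few for a value of their own.

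Cd14 was the only gene of the 32 to pass with the epithelial mean over 10 libraries (r = 0.892, rho = 0.915, permutation p = 0.00031, adjusted p = 0.0119), where 5.94% of all genes had a positive r past the threshold and 2.59% a positive rho. The share of the list was near or below these. Without the 2 libraries farthest from the median Cd14 had r = 0.883, and in the 7 libraries with low B and T cell markers r = 0.806 (exact permutation p = 0.0238, adjusted p = 0.225). Within those 7 libraries 0 of the 32 genes and 0% of all genes passed with the epithelial mean, and 2 of the 32 had a positive r at an unadjusted p under 0.05, against 8.4% of all genes. The lowest libraries for Cd14, HFA5 and CFA5, were those with the lowest epithelial markers. Tlr4 showed r = 0.28 with the same mean.

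**Figure D5:**
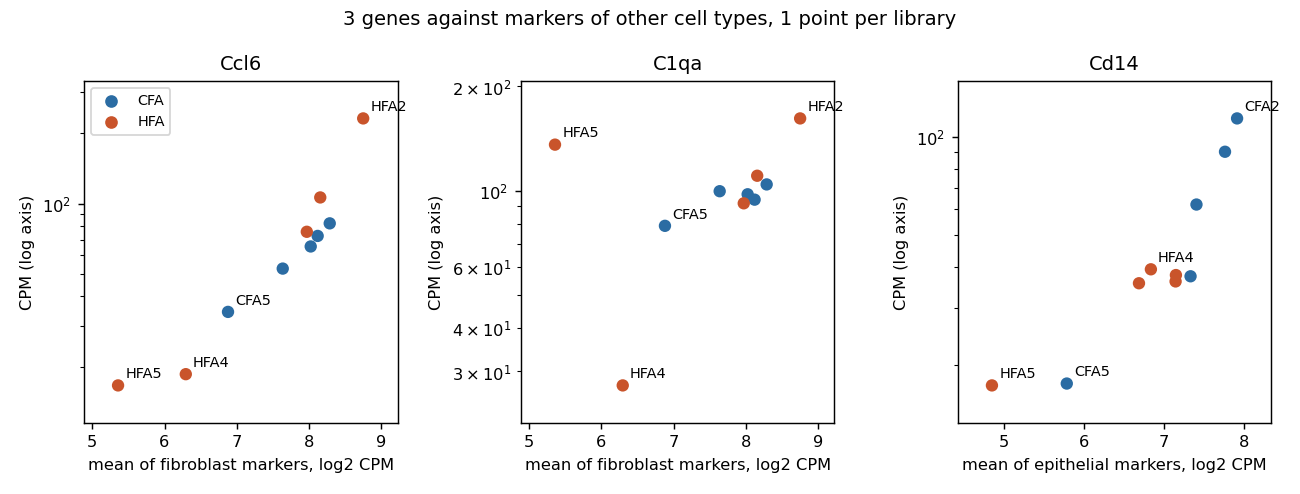
CPM (log axis) of Ccl6 and C1qa against the mean of 6 fibroblast markers and of Cd14 against the mean of 8 epithelial markers, 1 point per library, coloured by diet. Ccl6 rises with the fibroblast mean over all 10 libraries, C1qa lies along a line apart from HFA5, and Cd14 rises with the epithelial mean.

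Fcer1g encodes a subunit of the IgE receptor of mast cells as well as of macrophage Fc receptors, so mast cell markers were set beside it. Cpa3, Mcpt4, Cma1, Tpsb2, Fcer1a and Ms4a2 were highest in HFA2 and lowest in HFA4. Kit, the most abundant marker, was instead highest in CFA1 at 284 CPM and lowest in HFA5 at 57.6 CPM. The summed list was highest in CFA3 at 402 CPM and lowest in HFA5 at 150.2 CPM. The chymase gene Cma1 read 20.4, 22.5, 41.3, 40.2 and 19.6 CPM in CFA1 to CFA5 and 24.02, 57.8, 33.4, 5.30 and 19.7 CPM in HFA1 to HFA5. It was highest in HFA2 and lowest in HFA4, as were most macrophage genes, but HFA5 lay within the CFA range while Fcer1g was highest there. The part of mast cells in the Fcer1g level was not tested.

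Of 62 other macrophage genes taken from a wider list, 58 passed the filter and 0 passed in HFA against CFA (edgeR quasi-likelihood). Of the 58, 44 were higher and 14 lower, where 9372 of 15610 genes were higher, and the median log2 fold change was 0.2. Fabp5 at -1.10, Lipa at 0.35 and Lyve1 at 1.49 had an unadjusted p under 0.05, as did 7.36% of all genes. The most abundant was Cd36, a fatty acid receptor that fat cells also express, at 1966 ± 397 CPM under the CFA diet and 2191 ± 479.6 CPM under the HFA diet. The lysosomal protease Ctsd averaged 1809 ± 215 CPM under the CFA diet and 1561 ± 404 CPM under the HFA diet. Its fellow cathepsin Ctsb averaged 1379 ± 163 CPM under the CFA diet and 1508 ± 166 CPM under the HFA diet. On the marker mean of B and T cells, 14 of the 58 rose, against 18.3% of all genes, and 4 fell, against 11.4% of all genes. Without HFA5, 2 of the 58 rose and 0 fell, where 409 of 15735 genes rose and 12 fell. The 14 that rose over 10 libraries were Cd209b (slope 0.68), Tnf (0.54), Laptm5 (0.47), Ccl12 (0.46), Itgb2 (0.39), Spi1 (0.35), Aif1 (0.33), Ctss (0.32), Il1b (0.31), Cybb (0.26), Cxcl16 (0.25), Pld4 (0.23), Csf2rb (0.22) and Tlr7 (0.20). Several of these, among them Laptm5, Spi1 and Itgb2, are also expressed by lymphocytes. The 4 that fell were Ccl24 (-0.30), Gas6 (-0.21), Cd36 (-0.11) and Ctsd (-0.11).

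The genes outside the list whose log2 CPM over the 10 libraries was most like the mean of Adgre1, Csf1r, Cd68, Fcgr1 and Mertk were Ms4a6d (r = 0.979), Kctd10 (0.977), Mcub (0.97), Frmd4b (0.962), Fam126a (0.958), Alox5ap (0.957), Sulf1 (0.953), Rassf4 (0.952), Srgap2 (0.951) and Cd300a (0.94). They share libraries and scaling with that mean. Within the list, the genes closest to the same mean, leaving aside the 5 that make it, were C1qc (r = 0.97), C1qb (0.966) and C1qa (0.959), and the least alike was Cd14 (r = -0.107).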

How the data were processed

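RNA from whole right thoracic mammary fat pads was sequenced as 75 bp pairs, 1 library per sample, 5 samples per diet. The authors aligned the reads to GRCm38 with TopHat2 2.0.14 and Bowtie2 2.2.5 and deposited HTSeq 0.6.1 counts on the genes of Ensembl release 83, unnormalized. The study left out 1 sample for poor reverse reads and 1 as an outlier. The 5 summary lines of each file were left out: reads aligned to several places were 28.8% to 33.9% of the reads listed, reads on no gene 3.43% to 5.47% and ambiguous reads 3.52% to 4.29%. The files hold 46983 genes, of which 46488 matched GENCODE M21, the source of symbols and positions. Counts were not deduplicated by molecular identifiers, and differences between libraries measure the spread between these samples.

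Genes were filtered with filterByExpr, scaled by TMM and tested in R 4.3.3 with the quasi-likelihood test of edgeR 4.0.16, HFA against CFA. The p-values of 15610 genes were adjusted by the Benjamini-Hochberg method, and 0.05 was the threshold. Of the 33 genes, 32 passed the filter. SEs are the log2 fold change over the root of F, and the common coefficient of biological variation came to 0.409. The study's model had cage as a term, which the labels do not give. The fits and correlations were tested on simulated data. Marker means used a prior count of 2, and correlations used a pseudocount of 0.5 and 100000 permutations (scipy 1.17.1), or all orders for 7 libraries, with adjustment over 15610 genes. Promoters were aligned with Biopython 1.88. No pair of the 45 pairs of libraries was a copy (lowest chi-square per gene 13.7).

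Alternatives were RLE scaling, no filter, the likelihood ratio test, DESeq2 1.42.0, limma 3.58.1 voom without and with quality weights, title digit, replicate block and marker covariate terms, and leaving out each library. Leaving out the 3 libraries with B and T cell markers was chosen after seeing the data. All 33 genes were named by role, with the other macrophage genes past a threshold and the 3 most abundant, the leading marker of each cell type list, and the 10 genes most like the mean of 5 identity genes. Cma1, the further mast cell markers and the other macrophage genes with an unadjusted p under 0.05 were named after their values were seen. The members, lists and tests were chosen with earlier results of these data known.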

Additional observations from a re-analysis of the deposited data

Results flagged for a closer look

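Within each diet, each of the 33 genes was examined for a library set apart from the other 4. In 11 of the 66 gene and diet groups, the highest or lowest library had a gap to the next, divided by the group's range, above 0.71. Chance gives about 1 in 20 for independent normal values. These are CPM of genes that vary together in the same libraries, and no share over all genes was computed. The 11 therefore cannot be read as more than chance would give. HFA5 was the library set apart in 7 of the 11. It read 465 CPM for Marco, 218 CPM for Timd4, 99.5 CPM for Ccl8, 37.4 CPM for Msr1, 22.6 CPM for Itgax and 11.5 CPM for Cx3cr1, above the other HFA libraries, and 17.3 CPM for Cd14, below them. CFA5 was set apart among the CFA libraries in 3, at 79.3 CPM for Marco and 49.9 CPM for Timd4, above the others, and 63.95 CPM for C1qc, below them. HFA5 and CFA5 are the 2 libraries with the highest B and T cell markers and the lowest epithelial markers. The last was HFA2 for Trem2, at 5.95 CPM. HFA4, the lowest library for 24 genes, was set apart by this measure for none. The measure divides by the range, which high values in HFA2 or HFA5 widen, so it can miss a low library.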

How the results depend on the processing

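No call between diets over 10 libraries was made by RLE scaling, no filter, the likelihood ratio test, DESeq2, limma voom, the title digit term or the marker covariate, while voom with quality weights called 2 genes and leaving out the 3 libraries with B and T cell markers, chosen after seeing the data, called 1. The sign of several genes turned. With voom, the log2 fold change was -0.011 for Fcgr1, -0.23 for Lyz2, -0.20 for Cd163, -0.056 for Cd209f, -0.070 for C1qa, -0.075 for Ccl6, -0.037 for Ccl9, -0.13 for Trem2 and -0.18 for Tyrobp. With quality weights it was -0.012 for Adgre1, -0.31 for Fcgr1, -0.45 for Lyz2, -0.051 for C1qa, -0.020 for C1qc, -0.37 for Tyrobp and -0.15 for Fcer1g. With title digit as a term it was -0.35 for Cd163, -0.13 for Cd209f, -0.019 for C5ar1, -0.30 for Ccl6, -0.19 for Ccl9, -0.0044 for Pf4 and -0.17 for Trem2. The marker covariate gave -0.043 for Cd163, and leaving out the 3 libraries gave -0.048 for Fcgr1, -0.25 for Lyz2, -0.0096 for C1qa, -0.21 for Tyrobp and -0.091 for Fcer1g. The cause of these turns was not tested.

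Sample numbers in the titles repeat across diets. Deviations from the group means correlated at 0.298, -0.294, 0.111 and 0.41 over the 4 shared numbers, which are too few to show or exclude a pairing. The replicate block, over these 8 libraries, called 0 of 32 genes and gave -0.064 for Fcgr1, -0.14 for Lyz2, -0.090 for Cd163, -0.091 for Cd209f, -0.015 for C1qa, -0.069 for Ccl6, -0.0079 for Ccl9, -0.18 for Trem2 and -0.19 for Tyrobp.

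Leaving out each library in turn moved the log2 fold change over -0.13 to 0.55 for Adgre1, -0.056 to 0.40 for C1qa, -0.18 to 0.81 for Ccl6, -0.051 to 0.85 for Ccl9, -0.43 to 0.089 for Ccr2, -0.19 to 0.46 for Fcer1g, -0.24 to 0.45 for Fcgr1, -0.42 to 0.49 for Lyz2, -1.55 to 3.0 for Timd4, -0.83 to 0.60 for Trem2 and -0.32 to 0.37 for Tyrobp. HFA2, HFA4 or HFA5 was the library left out in each turn of sign. Calls with the marker mean were 12 by DESeq2 (6 lower), where 5862 of 15610 genes were called. Voom called 3 (3 higher, 0 lower), where 5375 of 15610 genes were called, and no filter gave 4 (0 lower), where 4334 of 27582 were. The median of the markers gave 1 lower, where 1800 of 15610 genes were. With a library left out there were 0 to 10 calls (0 to 6 higher, 0 to 6 lower). HFA5 gave the 0, where 421 of 15735 genes were called. The slope of Itgax then ran from -0.0014 to 0.20. Calls between title digits within HFA were 7 by the likelihood ratio test, 8 by DESeq2 and 0 to 15 with a library left out, the 15 without HFA4. With reads on Marco and Trem2 in single digits in several libraries, differences among those libraries were not detectable at this depth.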
